A study of Mus musculus with 12 samples.

Results

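The IL-17 family genes examined here were 5 ligand genes (*Il17a*, *Il17f*, *Il17b*, *Il17c*, *Il17d*) and 5 receptor genes (*Il17ra*, *Il17rb*, *Il17rc*, *Il17rd*, *Il17re*), taken by gene symbol. All 10 were among the 21247 genes of the count table, and all 10 passed the minimum of 10 counts summed over the libraries, which left 20454 genes to test. RNA-seq had been performed on the periocular skin of 6-week-old mice on a BALB/c background, with 4 libraries under each of the labels ft/ft and ft/ftMyD88-/-. Mice of both groups are homozygous for the flaky tail (ft) allele, a point mutation that arose spontaneously and disables filaggrin, a protein of the outer epidermis, given by the study as free of the *ma* mutation of *Tmem79* that it once travelled with. The ft/ftMyD88-/- mice in addition lack MyD88, the adaptor through which toll-like and IL-1 family receptors signal, in every cell, so that no cell type is singled out by the model. Both strains are given as bred in the same specific pathogen-free facility and as female, which the sex-linked transcripts below do not bear out for ft/ft. WT libraries were not analysed here, so no value below is set against WT skin. The groups are named below by their labels.

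IL-17 cytokines are secreted dimers that tie lymphocytes to epithelia. IL-17A and IL-17F come mainly from Th17 cells, γδ T17 cells and innate lymphoid cells, whereas IL-17C comes from epithelial cells themselves, and all of them drive neutrophil-attracting chemokines and antimicrobial peptides in keratinocytes. The receptors work as pairs built on IL-17RA: with IL-17RC for IL-17A and IL-17F, with IL-17RE for IL-17C and with IL-17RB for IL-25, the ligand also called IL-17E.

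*Il17a* and *Il17f* are neighbours on mouse chromosome 1. In the RefSeq annotation of GRCm38.p6, *Il17a* occupies chr1:20730905-20734496 on the plus strand and *Il17f* occupies chr1:20777146-20785274 on the minus strand, with 42649 bases between them. Since these genes showed the largest increases of the family, the 250 bases before each RefSeq transcription start are shown, 5′ to 3′ on the gene's own strand. The *Il17a* window is chr1:20730655-20730904 and the *Il17f* window is chr1:20784271-20784520, which lies inside the annotated *Il17f* gene because the start used by RefSeq's promoter table is not the outermost one. Capitals mark the letters AGGTCA on either strand, a half-site of nuclear receptors, and TATAAA, the TATA box.
Il17a: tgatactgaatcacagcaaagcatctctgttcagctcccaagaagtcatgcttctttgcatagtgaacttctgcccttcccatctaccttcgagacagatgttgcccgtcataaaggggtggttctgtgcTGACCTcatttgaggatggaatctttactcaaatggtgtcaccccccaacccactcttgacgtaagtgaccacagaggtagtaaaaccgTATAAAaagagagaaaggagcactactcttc
Il17f: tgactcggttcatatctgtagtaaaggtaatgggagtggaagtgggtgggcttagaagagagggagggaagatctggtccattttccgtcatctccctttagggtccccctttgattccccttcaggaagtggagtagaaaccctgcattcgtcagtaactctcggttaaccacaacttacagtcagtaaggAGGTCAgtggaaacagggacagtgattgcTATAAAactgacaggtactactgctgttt
In the *Il17a* window AGGTCA was found on the minus strand from base -120 to base -115, counted back from the start, and TATAAA from base -31 to base -26. In the *Il17f* window AGGTCA was found on the plus strand from base -58 to base -53 and TATAAA from base -29 to base -24. Among 32851 RefSeq promoter windows of the same length, 14.02% held AGGTCA on either strand and 12.4% held TATAAA. An AP-1 site, with the letters TGANTCA, was found in the *Il17a* window from base -244 to base -238, overlapped no other motif searched and occurred in 6.75% of all windows. It was not among the letters of the *Il17f* window. The windows held 46% and 47.2% G and C. These matches describe the letters of the windows only.

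The libraries held 15802957 to 29255129 counts. Values are given as counts and as CPM, a count divided by the TMM-scaled size of its library (edgeR) and set to a common total. The TMM factors were 0.922 to 0.954 for ft/ft and 1.04 to 1.09 for ft/ftMyD88-/-. Some facts of the whole series touch every result below. First, *Xist*, made from the inactive X chromosome of females, stood at 0.0107 ± 0.0214 CPM (SD, n = 4) in ft/ft and at 49.4 ± 13.3 CPM in ft/ftMyD88-/-. The Y-linked *Ddx3y* stood at 65.0 ± 8.97 and 0.147 ± 0.225 CPM. By these transcripts the ft/ft libraries read as male and the ft/ftMyD88-/- libraries as female, although the study gives all mice as female. Sex and genotype therefore cannot be told apart in these libraries. Next, the knocked-out gene *Myd88* did not fall in ft/ftMyD88-/- libraries (41.2 ± 7.29 CPM against 30.7 ± 4.74 CPM in ft/ft, edgeR adjusted p = 0.0484), and counts per gene do not show whether the deleted exons were read. *Tmem79*, the gene of the *ma* mutation, stood at 59.2 ± 2.92 CPM in ft/ft and 16.4 ± 2.10 CPM in ft/ftMyD88-/- with no overlap (log2 fold change -1.85, edgeR adjusted p = 5.08e-07), and its part in the results below was not tested. Last, ft/ft replicate 2 stood apart from the other ft/ft libraries in inflammatory genes: the 9 neutrophil markers in the table summed to 375 CPM there and to at most 86.5 CPM in the others. *S100a9*, *Ltf* and *S100a8* were the highest of these markers in that library, at 134, 112 and 88.4 CPM, while *Csf3r* stood at 6.15 CPM. Keratinocyte identity was clear in both groups, with *Krt5* at 4994 ± 495 and 3131 ± 189 CPM and *Krt14* at 4717 ± 634 and 4881 ± 847 CPM in ft/ft and ft/ftMyD88-/-.

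Of the 10 family genes, 4 were higher in ft/ftMyD88-/- at an adjusted p under 0.05 by edgeR's quasi-likelihood test (*Il17a*, *Il17f*, *Il17c* and *Il17ra*), where 10.9% of all genes tested were higher. Another 2, *Il17re* and *Il17rc*, were lower on this scale, where 12.3% of all genes tested were lower and 23.3% passed in either direction. Set against basal keratinocyte markers, *Il17re* was 0.08 lower and *Il17rc* 0.20 higher on the log2 scale, with overlapping groups for both. This scale was chosen after the values were seen, and 6 of its 8 markers were themselves lower. The other 4 genes, *Il17b*, *Il17d*, *Il17rb* and *Il17rd*, did not pass. By library values, the groups did not overlap for 5 genes that stood higher, the 4 above and *Il17b*, and for the 2 that were lower, against 12.5% and 14.2% of all genes tested. In bulk skin, a larger number of cells of a type and more RNA per cell cannot be told apart. The counts were 3 higher and 2 lower without ft/ft replicate 2, beside 9.93% and 11.2% of all genes then tested. With libraries scaled by size alone, which moved the median log2 fold change of all genes from 0.01 to 0.19, 5 were higher and 1 was lower, beside 22.7% and 6.48% of all genes tested.

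**Figure D1:**
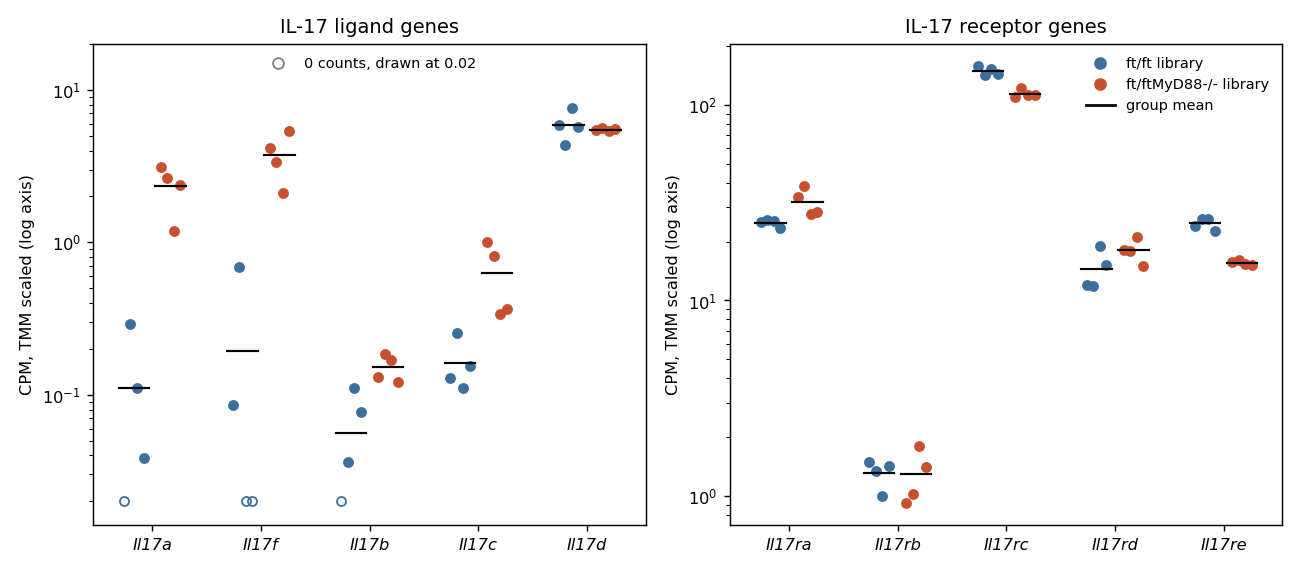
CPM of each IL-17 ligand (left) and receptor (right) gene in each of the 4 ft/ft (blue) and 4 ft/ftMyD88-/- (red) libraries, on a log axis, with group means as black lines and libraries without a count as open circles. *Il17a*, *Il17f* and *Il17c* stand higher in every ft/ftMyD88-/- library, while *Il17rc* and *Il17re* stand lower in each of them on this scale.

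*Il17a* encodes the founding cytokine of the family. The ft/ft libraries, replicates 1 to 4, held 0, 8, 2 and 1 counts of it, or 0, 0.291, 0.112 and 0.0383 CPM. The ft/ftMyD88-/- libraries held 71, 72, 35 and 39 counts, or 3.11, 2.65, 1.19 and 2.38 CPM. The lowest ft/ftMyD88-/- library was above the highest ft/ft library, and of the 11 ft/ft counts 8 came from replicate 2, or 72.7%. The log2 fold change was 4.27 (SE 0.573, edgeR adjusted p = 5.37e-04), a fitted 19.3-fold increase. Without ft/ft replicate 2 it was 5.53, and since the remaining ft/ft libraries were each at or under 3 counts, the level in ft/ftMyD88-/- was at least 17.02-fold higher than theirs. That bound sets the mean CPM against 3 counts per library and covers counting error only.

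*Il17f*, whose product also pairs with IL-17A as a heterodimer, was likewise at or near 0 in most ft/ft libraries. Its counts in ft/ft replicates 1 to 4 were 2, 19, 0 and 0, or 0.0857, 0.691, 0 and 0 CPM. In ft/ftMyD88-/- they were 95, 92, 62 and 88, or 4.16, 3.38, 2.11 and 5.37 CPM. The groups did not overlap, and ft/ft replicate 2 carried 90.5% of the 21 ft/ft counts. The log2 fold change was 4.08 (SE 0.799, edgeR adjusted p = 0.00834). It was 6.73 without ft/ft replicate 2, with the ft/ftMyD88-/- level at least 27.4-fold higher than the floor of the other ft/ft libraries, and 5.32 by limma voom. A library with no count could hold up to 3 counts, which amounts to 0.167 and 0.115 CPM in ft/ft replicates 3 and 4.

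Setting *Il17a* against *Il17f* within a library, the ratio of *Il17f* to *Il17a* counts (0.5 added to each) was 1.34, 1.28, 1.76 and 2.24 in ft/ftMyD88-/- replicates 1 to 4. In ft/ft it was 5, 2.29, 0.2 and 0.333, on counts too few to order the genes. The groups overlapped (difference of log2 ratios 0.78, two-sided exact permutation test p = 0.486, adjusted p = 0.555 over 8 ratios). With 4 libraries against 4, the smallest p that this test can give is 0.0286.

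*Il17c* (chr8:122422020-122423639), the epithelial member, was detected in every library. It had 3, 7, 2 and 4 counts in ft/ft (0.129, 0.255, 0.112 and 0.153 CPM). In ft/ftMyD88-/- it had 23, 22, 10 and 6 counts (1.01, 0.808, 0.34 and 0.366 CPM). Replicates 1 and 2 of ft/ftMyD88-/- were above replicates 3 and 4, and all 4 were above the highest ft/ft library. Mean levels were 0.162 ± 0.064 and 0.631 ± 0.331 CPM (SD, n = 4), with a log2 fold change of 1.90 (SE 0.488, edgeR adjusted p = 0.0153), on ft/ft counts close to the floor of 3.

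The remaining ligands did not pass the test. *Il17b*, which signals through IL-17RB, had 0, 1, 2 and 2 counts in ft/ft against 3, 5, 5 and 2 counts in ft/ftMyD88-/-. Scaled for depth, its 4 ft/ftMyD88-/- values (0.122 to 0.184 CPM) all lay above the ft/ft values (0 to 0.112 CPM), yet the log2 fold change of 1.45 had an SE of 0.714 and an edgeR adjusted p of 0.161. Every ft/ft library and 2 of the ft/ftMyD88-/- libraries were at or under 3 counts, so these counts do not settle whether *Il17b* differed. *Il17d* (chr14:57524829-57543166), a ligand of CD93, had 137, 120, 136 and 148 counts in ft/ft against 124, 154, 157 and 91 in ft/ftMyD88-/-. At 5.87 ± 1.32 and 5.50 ± 0.138 CPM its groups overlapped, and the ft/ft libraries were the more spread, with a coefficient of variation of 22.5% against 2.51%. Its log2 fold change was -0.09 (SE 0.168, edgeR adjusted p = 0.74) and 0.09 when libraries were scaled by size alone. *Cd93* itself stood at 27.7 ± 4.38 and 23.1 ± 3.88 CPM with overlapping groups (-0.26, SE 0.141, edgeR adjusted p = 0.201).

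*Il25*, the sixth ligand gene of the family by descent but not by symbol, was read beside the members because it shares IL-17RB with *Il17b*. It had 21, 14, 19 and 8 counts in ft/ft (0.90, 0.509, 1.06 and 0.307 CPM) and 2, 2, 1 and 0 counts in ft/ftMyD88-/- (0.0876, 0.0735, 0.034 and 0 CPM). Every ft/ftMyD88-/- library was below every ft/ft library, opposite in direction to *Il17a*, *Il17f* and *Il17c*. The log2 fold change was -3.58 (SE 0.628, edgeR adjusted p = 0.00204), and the mean level was at least 5.27-fold lower against the floor of 3 counts per library.

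*Il17ra*, the shared receptor subunit, lies at chr6:120463181-120483731. Its 4 ft/ft libraries were tightly grouped, at 25.1, 25.7, 25.4 and 23.6 CPM (585, 706, 456 and 615 counts). Its ft/ftMyD88-/- libraries stood at 33.7, 38.3, 27.6 and 28.3 CPM (770, 1043, 811 and 464 counts). The groups did not overlap, but the gap between them was narrow next to the spread within ft/ftMyD88-/-. The log2 fold change was 0.36 (SE 0.113, edgeR adjusted p = 0.0373). This call was lost in 6 of the 8 fits that left out 1 library, namely each of the 4 ft/ft libraries and ft/ftMyD88-/- replicates 1 and 2, with values from 0.27 to 0.44 and an adjusted p of up to 0.110 over those 8 fits.

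*Il17rc* and *Il17re* are themselves neighbours, at chr6:113471455-113483163 and chr6:113458699-113470758 on the plus strand, with 696 bases between them. *Il17rc*, the partner for IL-17A and IL-17F, stood at 158, 142, 152 and 143 CPM in ft/ft (3697, 3901, 2723 and 3736 counts). In ft/ftMyD88-/- it stood at 110, 121, 113 and 112 CPM (2512, 3303, 3308 and 1842 counts). All ft/ftMyD88-/- libraries were below all ft/ft libraries. The log2 fold change was -0.38 (SE 0.0786, edgeR adjusted p = 0.0047). With libraries scaled by size alone it was -0.21 and no longer passed (edgeR adjusted p = 0.0631).

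*Il17re*, the partner for IL-17C, showed the larger decrease of the pair. Its levels were 24.0, 26.1, 26.2 and 22.8 CPM in ft/ft (559, 717, 470 and 594 counts) and 15.7, 16.1, 15.4 and 15.2 CPM in ft/ftMyD88-/- (359, 438, 453 and 250 counts). The ft/ftMyD88-/- libraries lay within 1 CPM of each other and well below every ft/ft library. The log2 fold change was -0.66 (SE 0.0923, edgeR adjusted p = 5.37e-04), a 1.58-fold decrease, and it was -0.49 with libraries scaled by size alone.

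*Il17rb* and *Il17rd* did not pass. *Il17rb*, the partner for IL-25, had 35, 37, 18 and 37 counts in ft/ft against 21, 28, 53 and 23 in ft/ftMyD88-/-, or 1.32 ± 0.218 and 1.29 ± 0.40 CPM. Its log2 fold change was -0.04 (SE 0.264, edgeR adjusted p = 0.935) and 0.14 with libraries scaled by size alone. *Il17rb* (chr14:29996168-30008896) overlaps *Actr8* on the other strand, and the strand setting of the counting is not given in the sources used here, so reads of these genes cannot be told apart. *Il17rd* (chr14:27038964-27107286), a co-receptor of IL-17RA that also restrains fibroblast growth factor signalling, stood at 12.0, 11.8, 18.9 and 15.3 CPM in ft/ft. In ft/ftMyD88-/- it stood at 18.1, 17.9, 21.1 and 15.1 CPM, so that the groups overlapped. Its log2 fold change of 0.32 (SE 0.159, edgeR adjusted p = 0.167) passed the threshold without ft/ft replicate 3 (0.47, adjusted p = 0.0475).

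Because a ratio within a library does not move with the scaling between libraries, each partner was also set against *Il17ra* there. The ratio of *Il17rc* to *Il17ra* counts was 6.32, 5.52, 5.97 and 6.07 in ft/ft and 3.26, 3.17, 4.08 and 3.97 in ft/ftMyD88-/-. The ratio of *Il17re* to *Il17ra* counts was 0.956, 1.02, 1.03 and 0.966 in ft/ft and 0.467, 0.42, 0.559 and 0.539 in ft/ftMyD88-/-. In both, each ft/ftMyD88-/- library was below each ft/ft library, so these partners and *Il17ra* changed unequally. The differences of log2 ratios were -0.73 for *Il17rc* and -1.01 for *Il17re*, each with an exact permutation p of 0.0286 and an adjusted p of 0.0457 over 8 ratios. For *Il17rb* (-0.41, exact permutation p = 0.314, adjusted p = 0.419) and *Il17rd* (-0.02, p = 0.943, adjusted p = 0.943) the groups overlapped.

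**Figure D2:**
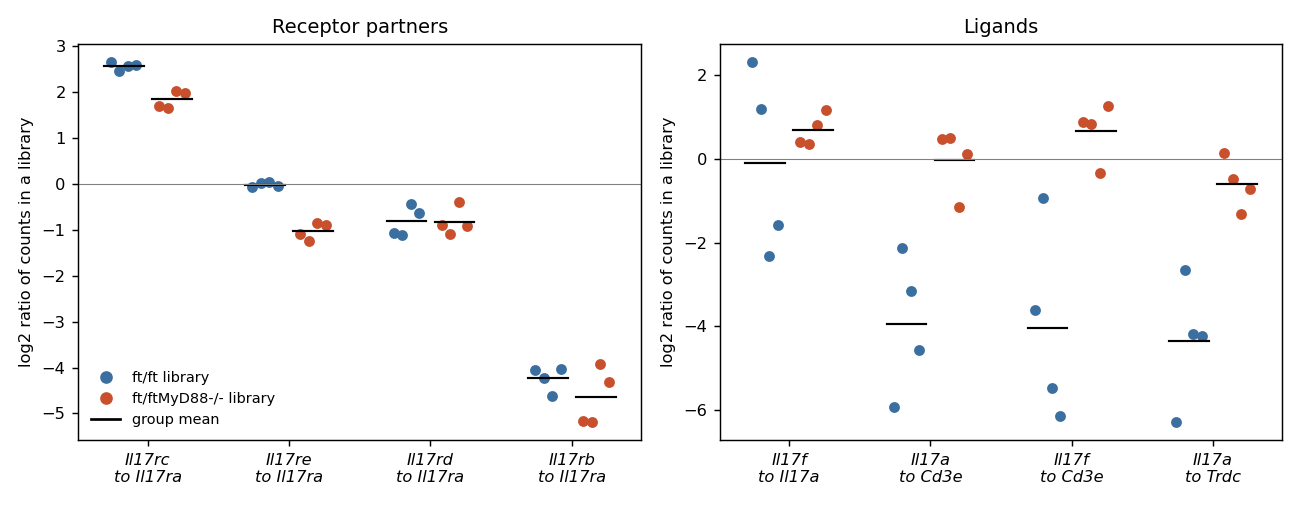
Log2 ratios of counts within each library, for the receptor partners to *Il17ra* (left) and for the ligands (right), with ft/ft libraries in blue, ft/ftMyD88-/- libraries in red and group means as black lines. The groups separate for *Il17rc* and *Il17re* to *Il17ra* and for the ligands to the T cell genes *Cd3e* and *Trdc*, and they overlap for the other 3 ratios.

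The fall of *Il17rc* and *Il17re* was seen beside lower levels of keratinocyte genes. Counts of marker and pathway genes from here on are to be read beside all genes tested, of which 10.9% were higher and 12.3% lower. Of 8 basal keratinocyte markers 6 were lower and none was at 0 in any group, and their summed level was 14544 to 17750 CPM in ft/ft against 10118 to 12356 CPM in ft/ftMyD88-/-. Of 10 differentiated keratinocyte markers 4 were lower, with sums of 19437 to 24824 and 13684 to 17024 CPM. Of 14 sebocyte markers 9 were lower, with sums of 23849.9 to 26981 and 14672 to 21258 CPM, and of 12 skeletal muscle markers 11 were lower, with sums of 11361 to 15222 and 4302 to 8117 CPM. Scaled to the mean log2 count of the 8 basal keratinocyte markers, a scale chosen after these values were seen, *Il17rc* was 0.20 higher and *Il17re* 0.08 lower (-0.08) on the log2 scale, with overlapping groups (exact permutation p = 0.0857 and 0.286, adjusted p = 0.143 and 0.286 over 5 receptors). On that scale *Il17ra* and *Il17rd* differed by 0.93 and 0.91 with no overlap (exact permutation p = 0.0286, adjusted p = 0.0714, the smallest that 2 such genes among 5 can reach), and *Il17rb* by 0.52 (adjusted p = 0.214). The basal markers had a median log2 fold change of -0.63, so a gene that fell by a similar amount shows little change on this scale. The part of these cell types in the receptor differences was not tested.

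**Figure D3:**
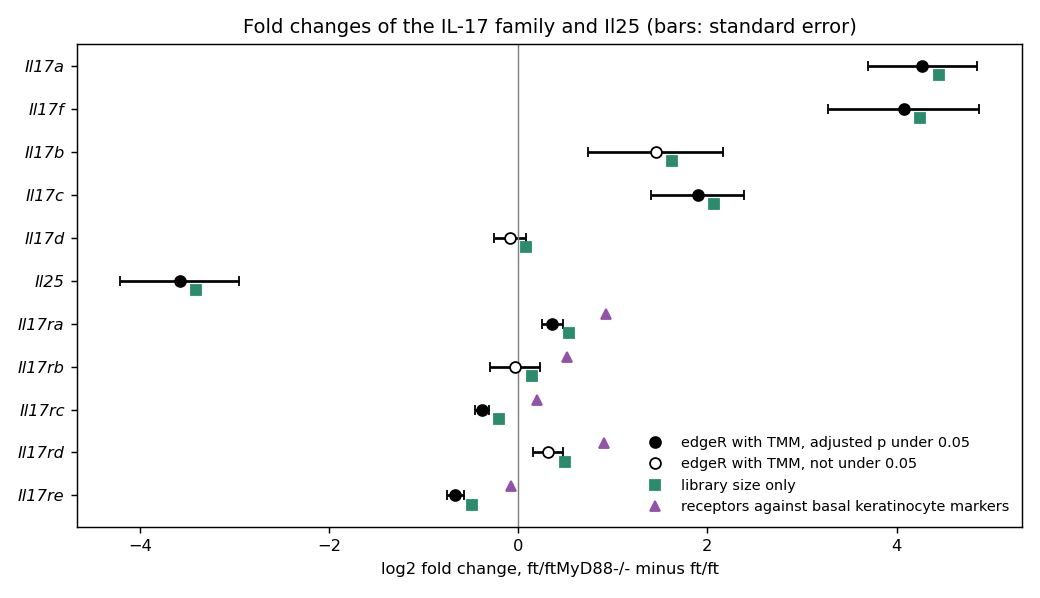
Log2 fold change of each family gene and *Il25*, ft/ftMyD88-/- minus ft/ft, from edgeR with TMM scaling (circles with standard errors, filled where the adjusted p was under 0.05), with libraries scaled by size alone (squares) and, for receptors, against basal keratinocyte markers (triangles). *Il17a*, *Il17f* and *Il17c* stay above 0 and *Il25* below 0 on both scales shown for them. With the scale, *Il17rc* moves from -0.38 to 0.20, *Il17re* from -0.66 to -0.08 and *Il17rb* from -0.04 to 0.52.

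Levels of different genes were compared per kilobase of exon, taking as length the union of all annotated exons of a gene. That union can be longer than the transcript present in the skin. The comparison holds only if counts grow with transcript length, as in the polyA libraries of the study's methods. It does not hold for a probe-based fixed-tissue protocol such as the labels name. Per kilobase, the receptor genes and *Il17d* made up the upper end of the family in ft/ft. *Il17rc* had the highest level, 55.7 ± 2.91 CPM per kb (SD, n = 4), followed by *Il17d* (4.61 ± 1.04), *Il17re* (4.22 ± 0.286), *Il17ra* (2.88 ± 0.109) and *Il17rd* (1.32). *Il17rb* (0.355), *Il17c* (0.225), *Il17f* (0.096), *Il17a* (0.0941) and *Il17b* (0.0577) came last, and each overlapped its neighbour in this order. *Il17d* and *Il17re* also overlapped. In ft/ftMyD88-/- the order changed in its middle: *Il17rc* (42.7 ± 1.87 CPM per kb) still led, *Il17d* (4.31 ± 0.108) came next but overlapped *Il17ra*, and *Il17a* (1.99 ± 0.699) and *Il17f* (1.86 ± 0.676) came to lie between *Il17re* (2.66 ± 0.064) and *Il17rd* (1.64 ± 0.223). There *Il17re*, *Il17a*, *Il17f*, *Il17rd*, *Il17c* (0.877 ± 0.46) and *Il17rb* (0.348) each overlapped the next in turn, so their order is not set by these libraries, and *Il17b* (0.156) stayed last. *Il17ra* (3.69 ± 0.582) lay below *Il17re* per kilobase in ft/ft and above it in ft/ftMyD88-/-, without overlap in either group. In CPM, with no division by length, these receptors overlapped in ft/ft (23.6 to 25.7 and 22.8 to 26.2 CPM), and *Il17d* (5.87 CPM) lay below both, so the order in ft/ft rests on the lengths.

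**Figure D4:**
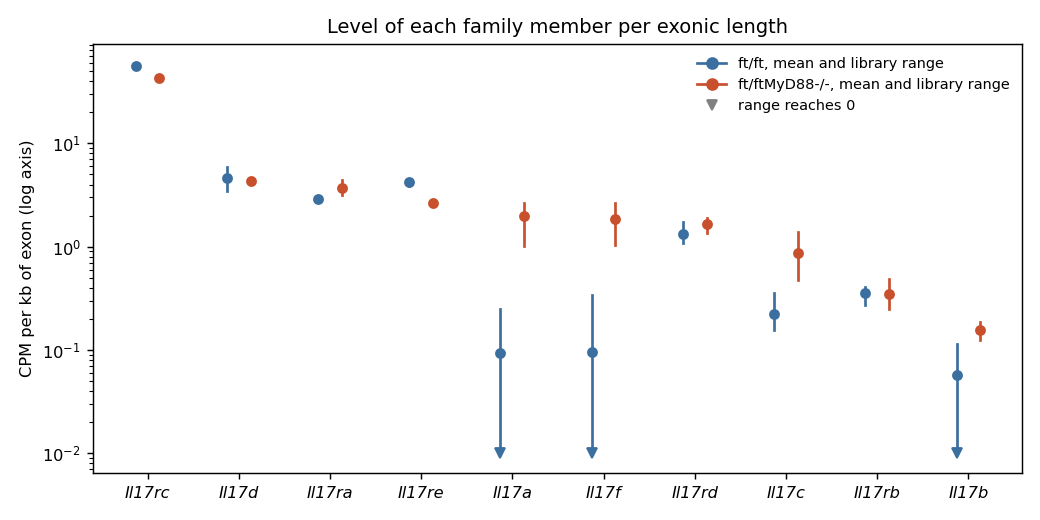
Level of each family gene in CPM per kilobase of exon on a log axis, with the mean (point) and the range over 4 libraries (line) for ft/ft (blue) and ft/ftMyD88-/- (red); an arrowhead marks a range that reaches 0. *Il17rc* lies highest in both groups, at 55.7 and 42.7 CPM per kb, and *Il17a* and *Il17f* rise from the lower end in ft/ft to the middle of the order in ft/ftMyD88-/-.

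T cell genes, which mark the main source of IL-17A and IL-17F, were higher in the same libraries. Of 9 T cell markers 8 were higher, and their summed level was 22.9 to 27.8 CPM in ft/ft and 38.4 to 47.7 CPM in ft/ftMyD88-/-. Of 8 alpha beta T cell markers 6 were higher (14.7 to 19.3 and 23.2 to 34.0 CPM), and of 8 gamma delta T17 markers 4 were higher and 1 was lower (48.3 to 53.4 and 51.9 to 60.8 CPM); all 8 of the latter are also among the producing-cell genes below. *Cd3e*, a subunit of the T cell receptor complex, went from 1.30 ± 0.0558 to 2.24 ± 0.32 CPM, a log2 fold change of 0.78 (SE 0.195, edgeR adjusted p = 0.0132). *Trdc*, the constant region of the T cell receptor delta chain, went from 1.80 ± 0.596 to 3.35 ± 0.535 CPM, a log2 fold change of 0.91 (SE 0.246, edgeR adjusted p = 0.0194). No marker of these lists was at 0 in every library.

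The ligands rose by more than *Cd3e* and *Trdc* did. Some other T cell markers rose by less than these and some by more, up to 3.41 for *Cd8a*, on ft/ft counts of 0 to 5. The ratios below are per count of a T cell gene and give no level per IL-17-producing cell. Counts of *Il17a* per count of *Cd3e* (0.5 added to each) were 0.0164, 0.227, 0.111 and 0.0423 in ft/ft and 1.39, 1.41, 0.452 and 1.08 in ft/ftMyD88-/-. The difference of log2 ratios was 3.94, or 15.3-fold. Per count of *Trdc*, *Il17a* was 13.5-fold higher (3.76 on the log2 scale), with 0.0127, 0.159, 0.0549 and 0.0526 in ft/ft and 1.11, 0.714, 0.401 and 0.612 in ft/ftMyD88-/-. *Il17f* per count of *Cd3e* was 26.3-fold higher (4.72 on the log2 scale). None of the 3 ratios overlapped between the groups, and each had an exact permutation p of 0.0286 and an adjusted p of 0.0457 over 8 ratios. The fold of *Il17f* to *Cd3e* was sensitive to its zeros, at 4.16 on the log2 scale with 1 added to each count and 5.75 without ft/ft replicate 2. The *Il17a* ratios also fell with 1 added to each count, to 3.52 (*Cd3e*) and 3.34 (*Trdc*). They were 3.28 (*Cd3e*) and 3.11 (*Trdc*) without ft/ft replicate 1, and 4.54 and 4.32 without ft/ft replicate 2.

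Genes of IL-17-producing lymphocytes were mostly higher. Of 28 such genes tested 15 rose and 3 fell, with a list median log2 fold change of 0.64 beside 0.01 for all genes tested. *Zbtb16*, the transcription factor PLZF of innate-like lymphocytes and of cells outside that lineage, rose from 9.86 ± 1.83 to 42.6 ± 15.0 CPM (2.11, edgeR adjusted p = 0.00135), and *Tcrg-C2*, a T cell receptor gamma constant gene, from 0.772 ± 0.336 to 3.01 ± 0.273 CPM (1.97, adjusted p = 6.00e-04). *Batf*, a factor needed for Th17 differentiation, rose by 1.55 on the log2 scale (edgeR adjusted p = 4.48e-04). *Tcrg-V4*, a gamma chain variable gene, had 0, 2, 0 and 0 counts in ft/ft against 5, 4, 4 and 3 in ft/ftMyD88-/- (edgeR adjusted p = 0.0412), near the floor of 3 counts in both groups, so that no fold is given. *Il23r*, the IL-23 receptor subunit, had 8, 20, 11 and 11 counts in ft/ft against 18, 44, 47 and 29 in ft/ftMyD88-/- (1.44, edgeR adjusted p = 0.00886). *Rora* (-0.55) and *Ahr* (-0.39), which encode transcription factors, were among the genes that fell. Which cells gave the reads of the listed genes, rising or falling, was not tested.

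Among cytokines that act on those cells, 3 of 13 tested rose (*Il23a*, *Il1b* and *Il6*) and 10 did not pass, with a list median of 0.22, while 2 passed by limma voom. *Il6*, an inducer of Th17 cells, had 0, 0, 2 and 0 counts in ft/ft, as against 1, 39, 3 and 12 counts, so that the groups overlapped in CPM (edgeR adjusted p = 0.0415). *Il23a*, the subunit particular to IL-23, had 8, 20, 12 and 15 counts in ft/ft against 38, 64, 27 and 41 in ft/ftMyD88-/-. All ft/ftMyD88-/- libraries were above all ft/ft libraries after scaling, at 1.86 ± 0.725 and 0.579 ± 0.169 CPM (1.66, edgeR adjusted p = 0.00579). *Il1b*, whose product signals through MyD88, stood at 3.80 ± 3.45 and 31.0 ± 12.5 CPM (3.00, edgeR adjusted p = 0.025), again with no overlap.

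Receptor signalling genes had the lowest median of the 4 longer pathway lists, 0.16. Of 34 tested 8 rose, 3 fell and 23 did not pass, where 10.9% of all genes tested rose and 12.3% fell. *Traf3ip2*, which encodes Act1, the adaptor that IL-17 receptors recruit, stood at 22.04 ± 1.45 CPM in ft/ft and 20.3 ± 1.22 CPM in ft/ftMyD88-/- (-0.12, SE 0.0945, edgeR adjusted p = 0.408), and *Traf6*, the ligase downstream of it and of MyD88, at 44.3 ± 2.38 and 39.1 ± 4.30 CPM (-0.18, adjusted p = 0.185). The groups overlapped for both. *Fosl1*, an AP-1 subunit, rose from 1.70 ± 0.623 to 4.57 ± 0.807 CPM (1.40, edgeR adjusted p = 0.00265). *Tnfaip3*, the inhibitor A20, rose by 0.56 (adjusted p = 0.00768), *Cebpb*, a transcription factor of IL-17 targets, rose by 0.48 (adjusted p = 0.00447) and *Mapk3*, the kinase ERK1, fell by 0.47 on the log2 scale (edgeR adjusted p = 0.00128).

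Known epithelial targets of IL-17 had the highest list median, 1.92. Of 34 tested 17 rose and 17 did not pass by edgeR, while 27 passed by DESeq2 and 15 by limma voom. *Cxcl1*, a neutrophil-attracting chemokine, stood at 0.386, 0.946, 0.279 and 0.0767 CPM in ft/ft and at 4.03, 5.51, 4.22 and 7.50 CPM in ft/ftMyD88-/- (3.59, SE 0.481, edgeR adjusted p = 8.16e-04). *Reg3g*, an antimicrobial lectin, spanned 6 to 27 counts in ft/ft against 52 to 2233 in ft/ftMyD88-/-, with replicate 3 the lowest of its group (6.35, SE 1.33, edgeR adjusted p = 0.0184). *Saa3*, an acute phase protein, rose by 4.83 (edgeR adjusted p = 0.0251) and *Cxcl5*, another chemokine of neutrophils, by 4.45 (adjusted p = 0.0212). *Reg3g*, *Saa3* and *Cxcl5* varied several-fold between ft/ftMyD88-/- libraries, but none of these 4 genes overlapped between the groups.

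In this list ft/ft replicate 2 stood apart. The targets summed to 820 CPM there and to at most 377 CPM in the other ft/ft libraries, against 1027 to 1962 CPM in ft/ftMyD88-/-. *Nfkbiz*, which encodes IκBζ, a cofactor of IL-17 target genes, stood at 23.9, 82.2, 18.1 and 19.0 CPM in ft/ft and at 102, 88.5, 84.1 and 86.3 CPM in ft/ftMyD88-/- (1.33, SE 0.546, edgeR adjusted p = 0.133). *Zc3h12a*, the ribonuclease Regnase-1 that limits IL-17 signalling, stood at 18.3, 81.4, 13.5 and 16.5 CPM and at 126, 103, 79.0 and 108 CPM (1.67, SE 0.653, edgeR adjusted p = 0.118). In both genes ft/ft replicate 2 lay near the ft/ftMyD88-/- range and the other ft/ft libraries lay far below it. The same library had the most *Il17a*, *Il17f* and *Il17c* of its group. Neutrophil markers, of which 2 of 9 passed as higher and 3 are also among the targets (*S100a8*, *S100a9* and *Mmp9*), summed to 72.8 to 375 CPM in ft/ft and 441 to 1091 CPM in ft/ftMyD88-/-, and their part in the target genes was not tested. Over the pathway lists together 42 genes rose and 7 fell, where 10.9% and 12.3% of all genes tested did. The lists held 34 receptor signalling, 34 target, 28 producing-cell, 13 cytokine and 2 linked genes that were tested (*Il25* and *Cd93*). *Il6* and *Zc3h12a* were shared between lists and counted once. Without ft/ft replicate 2, 49 rose and 6 fell, beside 9.93% and 11.2% of all genes then tested.

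**Figure D5:**
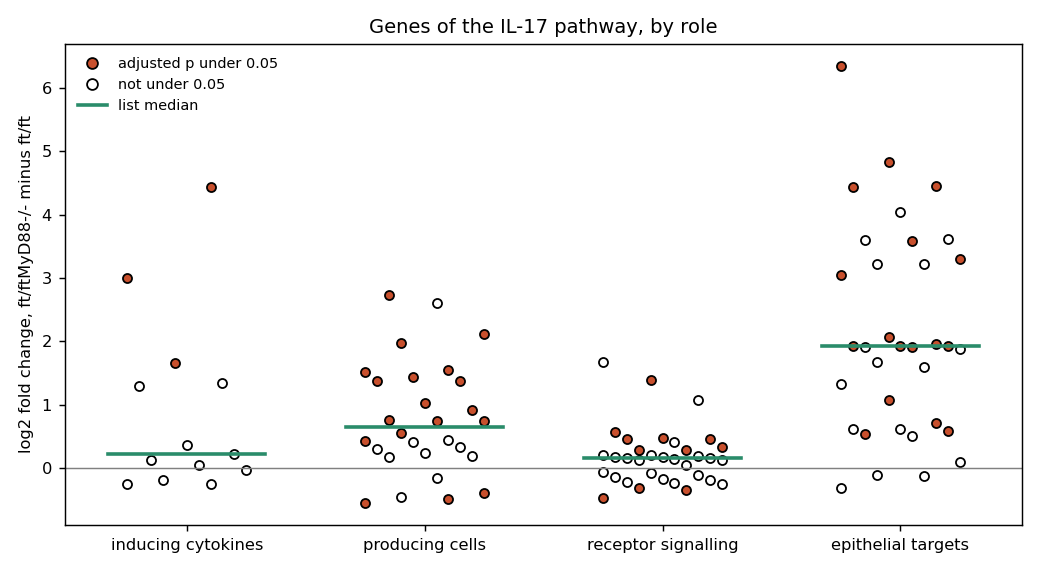
Log2 fold change, ft/ftMyD88-/- minus ft/ft, of each tested gene in 4 lists of the IL-17 pathway (points, filled where the edgeR adjusted p was under 0.05) with the list median (green line). The medians are 0.22 for inducing cytokines, 0.64 for producing cells, 0.16 for receptor signalling and 1.92 for epithelial targets.

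Genes whose library profile was most like a family gene were ranked by the mean absolute difference of log2 CPM over the 8 libraries, each gene centred on its mean. Nearest to *Il17a* among 192 genes compared were *Chil4* (0.487), *Pdcd1* (0.502), which encodes the checkpoint receptor PD-1, *Pnp2* (0.508) and *AC134246.2* (0.521), with *Il17f* at rank 18 (0.634). Nearest to *Il17f* among 113 genes were *Uox* (0.358), *Trem1* (0.483), *S100a9* (0.483) and *Cxcl1* (0.495). Nearest to *Il17rc* were *Bckdk* (0.0222), *Gpr108*, *Hadh* and *Pgpep1* of 12374 genes, nearest to *Il17re* were *Os9* (0.0313), *Bcam* and *Nt5c2* of 7620, and nearest to *Il17ra* were *Qpctl* (0.0686), *Adam9*, *Aaas* and *Rdh10* of 11491. All points share the 8 libraries and their split into groups.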

How the data were processed

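RNA-seq counts per gene were analysed for 4 ft/ft and 4 ft/ftMyD88-/- libraries, each from 1 mouse's periocular skin as far as the sources say; 4 WT samples were not analysed here. The authors deposited raw counts without normalization. The study's methods describe polyA-selected libraries aligned to GRCm38.p6 by HISAT and tophat2 and counted by HTSeq, whereas the labels of these 8 samples name a fixed-tissue protocol and Cell Ranger. Annotation release and strand setting are not given in the sources used here. Every column of the table belonged to one of the 8 libraries.

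Genes with at least 10 summed counts entered edgeR 4.0.16 under R 4.3.3 (TMM, robust glmQLFit, glmQLFTest, two-sided; Benjamini-Hochberg, threshold 0.05), with DESeq2 1.42.0, limma 3.58.1 voom, other scalings and filters, a replicate block and each library left out as alternatives. On simulated data of the same comparison (20229 genes tested), 200 of 200 genes changed by 2 on the log2 scale and 7 unchanged genes were called. The changed genes were drawn from those with higher mean counts, and every gene had the same dispersion. Recovery of genes near the floor, or with an outlying library, was therefore not tested. Replicates differed beyond counting noise (chi-square per degree of freedom at least 15.1 in every pair), and the biological coefficient of variation was 0.182. Ratios used exact permutation tests. Exonic lengths came from GENCODE vM21, coordinates and promoters from RefSeq (GRCm38.p6; 16066 symbols matched; promoter windows for 8 of 10 family genes). Markers and pathway genes came from 5 pathway lists and 17 marker lists; *Il36a* and *Il36g* were matched by their older symbols. Genes named are the members, the 4 largest non-overlapping changes that passed per pathway list, fixed partner and check genes, and the 4 nearest profiles (mean count at least 10, spread at least 0.75 of the member's). A few genes that this rule picks, and the position of *Il17b*, are not reported here. *Rora*, *Ahr* and *Cd8a* were named after their values were seen. Members and lists were chosen with earlier results of these data known.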

Additional observations from a re-analysis of the deposited data

Results flagged for a closer look

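Samples lying far from the rest of their group were sought with Dixon's gap-to-range ratio at its 95% critical value, which chance passes in about 1 in 20 groups; 3 of 92 groups passed, no more than that. *Tcrg-V4* in ft/ft replicate 2 had a ratio of 1, since it was the only ft/ft library with a count (log2 CPM -2.67 against -3.57 in the others). *Il23r* in ft/ftMyD88-/- replicate 1 had a ratio of 0.8727, being low at -0.20 against 0.75 to 0.89. *Zc3h12a* in ft/ft replicate 2 had a ratio of 0.831, being high at 6.35 against 3.76 to 4.20. None of the 10 family genes passed this value in either group.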

How the results depend on the processing

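Over up to 16 alternatives, *Il17a* (3.88 to 5.53), *Il17f* (3.65 to 6.73), *Il17c* (1.60 to 2.21), *Il17re* (-0.70 to -0.49) and *Il25* (-3.89 to -3.24) kept their direction and passed in each, and *Il17b* (1.08 to 1.87) passed in none; edgeR's filterByExpr left *Il17b*, *Il17c* and *Il25* untested. With libraries scaled by size alone 1 member was lower in place of 2 and 3 pathway genes were lower in place of 7. Of all genes tested, 6.48% were then lower in place of 12.3%. On that scale *Il17rc* no longer passed, *Il17rd* passed (0.50, edgeR adjusted p = 0.0436), and *Il17d* (0.087) and *Il17rb* (0.14) turned positive. Scaled to basal keratinocyte markers, which was not among these alternatives, *Il17rb* (0.52) and *Il17rc* (0.20) turned positive. On that scale *Il17re* (-0.08) and *Il17ra* (0.93) did not pass (adjusted exact permutation p = 0.286 and 0.0714). Leaving out 1 library, *Il17d* ranged from -0.21 to 0.053 and *Il17rb* from -0.25 to 0.10. Members higher ranged from 3 to 4, and pathway genes higher from 26 (without ft/ft replicate 4) to 49 (without ft/ft replicate 2). In these 2 fits 7.23% and 9.93% of all genes tested were higher. The within-library ratio of *Il17rd* to *Il17ra* then ranged from -0.16 to 0.11. The ratios of *Il17rc* (-0.79 to -0.67) and *Il17re* (-1.07 to -0.93) to *Il17ra*, of *Il17a* (3.28 to 4.54) and *Il17f* (4.02 to 5.75) to *Cd3e* and of *Il17a* to *Trdc* (3.11 to 4.32) kept their direction but missed the threshold whenever an ft/ftMyD88-/- library was left out (adjusted exact permutation p from 0.0571 to 0.0914). With 1 library fewer the exact test can give few values of p, so a missed threshold there does not by itself show a changed ratio. The cause of these changes was not tested.

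Same-numbered libraries of the groups did not deviate together (correlations -0.26 to 0.05), so the numbers do not pair them. With the replicate number as a block, 3 members were higher and 2 lower, and 4039 genes passed in place of 4764. In that fit 40 pathway genes were higher and 7 lower, beside 9.26% and 10.5% of all genes tested. There *Il17ra* missed the threshold (0.35, edgeR adjusted p = 0.0544). DESeq2 called 5624 genes in either direction. It called 2861 of all genes tested as higher, in place of 2239 by edgeR. Beside that wider call, 53 pathway genes were higher by DESeq2 in place of 42. Depth limits *Il17a*, *Il17f*, *Il17b* and *Il17c* in ft/ft and *Il25* in ft/ftMyD88-/-, where counts were near the floor of 3.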

Other observations

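Markers of other cell types in the same skin were read with the same edgeR test, as context for the family genes, whose relation to them was not tested. Of all genes tested, 10.9% were higher and 12.3% were lower. Of 10 macrophage and monocyte markers 3 were higher, with sums of 612 to 816 CPM in ft/ft as against 843 to 1156 CPM in ft/ftMyD88-/-. Of 6 markers of hyperproliferative keratinocytes 1 was higher (2797 to 3653 and 3309 to 5703 CPM), and of 8 fibroblast markers 4 were lower (14151 to 29307 and 7070 to 10461 CPM). Of 8 endothelial markers 1 was higher and 2 were lower. Of 7 B and plasma cell markers 1 was higher (305 to 372 and 291 to 317 CPM). None of 7 adipocyte markers passed by edgeR, DESeq2 or limma voom, with 0 at an unadjusted p under 0.05. None of 7 mast cell markers passed by edgeR or limma voom, with 2 at an unadjusted edgeR p under 0.05 and 2 by DESeq2. Of 6 lacrimal gland markers only *Esp6* was in the table, and it was higher. Of 5 sex-linked transcripts *Xist* was higher and the 4 Y-linked genes were lower.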
